A study of Mus musculus with 79 samples.

Results

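The genes described here are 9 genes of type 2 inflammation, the immune programme led by interleukins 4, 5 and 13, chosen by name: the alarmin Il33, the cytokine Il13, the chitinase-like genes Chil1, Chil3 and Chil4, the chitinase Chia1, the resistin-like gene Retnla, the arginase Arg1 and the eosinophil-associated ribonuclease Ear11. Each was matched by transcript identifier to the table of 31350 gene rows, and where several rows matched, the one with the highest mean would have been taken. A row was found for 8 of the 9 genes, each with 1 row, and Chil1 is not analysed here. Ear11 was matched through its RefSeq symbol Rnase2a.

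In type 2 inflammation, injured epithelium releases IL-33, which binds the receptor ST2 (the product of Il1rl1) on innate lymphoid cells, T helper 2 cells and mast cells. These cells make IL-13, which acts through the IL-4 receptor alpha chain and the transcription factor STAT6 on airway epithelium and macrophages. Macrophages that respond in this way are called alternatively activated, and Arg1, Retnla and Chil3 are their customary marker genes in the mouse. Chil3 and Chil4 encode the secreted proteins Ym1 and Ym2, which resemble chitinases but do not cleave chitin and can form crystals in the airways. Chia1 encodes acidic mammalian chitinase, the active enzyme that degrades inhaled chitin.

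The RNA came from the right lungs of 79 male and female C57BL/6J mice aged 5 to 7 weeks, 1 array per mouse. Mice were either wild type (WT) or βENaC littermates, which overexpress Scnn1b, the gene of the beta subunit of the epithelial sodium channel, from a transgene directed to airway club cells, and which develop dehydrated mucus and chronic airway inflammation. They breathed smoke from 6 reference cigarettes per day or room air (sham) for 1 day or for 5 consecutive days, and lungs were taken 4 h after the last exposure. The 1-day exposures comprised 10 mice in each combination of genotype and exposure, and the 5-day exposures 11 WT sham, 9 WT smoke-exposed, 9 βENaC sham and 10 βENaC smoke-exposed mice.

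The upstream sequences of the genes are shown because STAT6, the factor of the pathway, binds a known DNA word, and because Chil3 and Chil4 are neighbouring copies. The 250 bases before the start site, as RefSeq gives them on GRCm38.p6, were used for 8 of the 9 genes, and no window of Arg1 was analysed here. A pair of spaced palindromes that STAT proteins can bind was searched, TTCNNNNGAA, the spacing that STAT6 prefers, and TTCNNNGAA; both read the same on either strand, and no window shown holds both. The first occurs in 5.85% and the second in 7.02% of all 32851 RefSeq windows of this length. Of the 9 windows of the members, 4 held a match to either, shown in capitals. By word, Retnla and Il33 held the first and Chil3 and Chil4 the second. The share of all windows that hold either word was not computed. Each window is written 5′ to 3′ along the gene's strand.
Retnla, chr16:48842359-48842608, plus strand: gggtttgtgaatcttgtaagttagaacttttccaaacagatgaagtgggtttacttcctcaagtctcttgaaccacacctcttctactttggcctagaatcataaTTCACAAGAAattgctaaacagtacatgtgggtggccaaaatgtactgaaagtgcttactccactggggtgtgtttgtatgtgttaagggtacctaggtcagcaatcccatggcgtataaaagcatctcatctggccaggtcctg
Il33, first start site, chr19:29924863-29925112, plus strand: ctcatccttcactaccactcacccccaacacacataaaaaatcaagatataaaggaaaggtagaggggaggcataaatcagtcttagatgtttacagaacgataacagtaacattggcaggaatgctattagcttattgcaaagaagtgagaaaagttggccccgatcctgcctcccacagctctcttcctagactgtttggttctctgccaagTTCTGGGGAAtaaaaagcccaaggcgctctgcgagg
Chil3, chr3:106167565-106167814, minus strand: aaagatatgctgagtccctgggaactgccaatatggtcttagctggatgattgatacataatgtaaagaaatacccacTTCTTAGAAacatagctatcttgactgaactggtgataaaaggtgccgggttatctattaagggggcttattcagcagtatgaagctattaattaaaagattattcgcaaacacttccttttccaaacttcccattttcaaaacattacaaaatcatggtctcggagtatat
Chil4, chr3:106219480-106219729, minus strand: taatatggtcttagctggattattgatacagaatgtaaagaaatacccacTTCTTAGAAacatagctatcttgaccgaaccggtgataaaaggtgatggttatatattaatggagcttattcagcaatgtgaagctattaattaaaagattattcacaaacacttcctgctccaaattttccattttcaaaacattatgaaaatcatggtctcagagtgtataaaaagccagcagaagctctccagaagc
The Retnla match TTCACAAGAA begins 145 bases and the Il33 match TTCTGGGGAA 36 bases before the start site. Chil3 and Chil4 hold the same match, TTCTTAGAA, 172 and 200 bases before the start, in windows that align over 222 columns with 201 identical bases (90.5%). The windows of Chil1, Chia1, Ear11 and Il13 and that of the second Il33 start site, chr19:29945540-29945789 on the plus strand, held neither word. These are matches of letters only.

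All values are log2 intensities, so 1 unit is a doubling, and a level of one gene is not compared with that of another, since their probes differ. Scnn1b was at 8.42 to 9.47 in the 40 WT mice and at 11.52 to 11.88 in the 39 βENaC mice, with no overlap, so that every array fitted its genotype label. This includes the 13 WT smoke-exposed mice whose source names call them βENaC. The mean of the lung markers Sftpc, Scgb1a1 and Ager lay between 12.48 and 12.69 in every mouse. The median correlation of 4 arrays with the others lay between 0.978 and 0.983, below that of every other array. One was βENaC sham male 1 of the 1-day exposures, and 3 came from the 5-day exposures, βENaC smoke-exposed female 3, βENaC sham male 3 and WT smoke-exposed female 2. Results that change when these 4 are left out together, a choice made after the data were seen, are given with both values. In whole lung, fewer cells of a type and less RNA per cell cannot be told apart.

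Genotype was the variable with which these genes moved. In fits for each duration with terms for genotype, exposure and sex, 7 of the 8 genes were higher in βENaC mice both at 1 day and at 5 days, past an adjusted p of 0.05 and a 1.3-fold change. Over the whole table, 1.13% of rows at 1 day and 1.87% at 5 days were higher in βENaC mice by the same rule. The genes were chosen with earlier results of these data known, so these shares are a description and no test of the set. The differences were largest for Ear11 (12.3-fold and 24.5-fold), Chil4 (7.98-fold and 16.4-fold), Arg1 (3.89-fold and 6.4-fold) and Retnla (3.75-fold and 4.58-fold). Il13 was the gene that did not pass. Over the 8 genes the genotype difference had a median of 1.31 (1 day) and 1.57 (5 days) in log2 units, and over all rows it was 0.00 and -0.01. No difference between the durations was called for any of the 8 genes (genotype by duration term, limma adjusted p from 0.876 to 0.947; 0 genes at an unadjusted p below 0.05), nor for any row of the table (0% called).

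**Figure D1:**
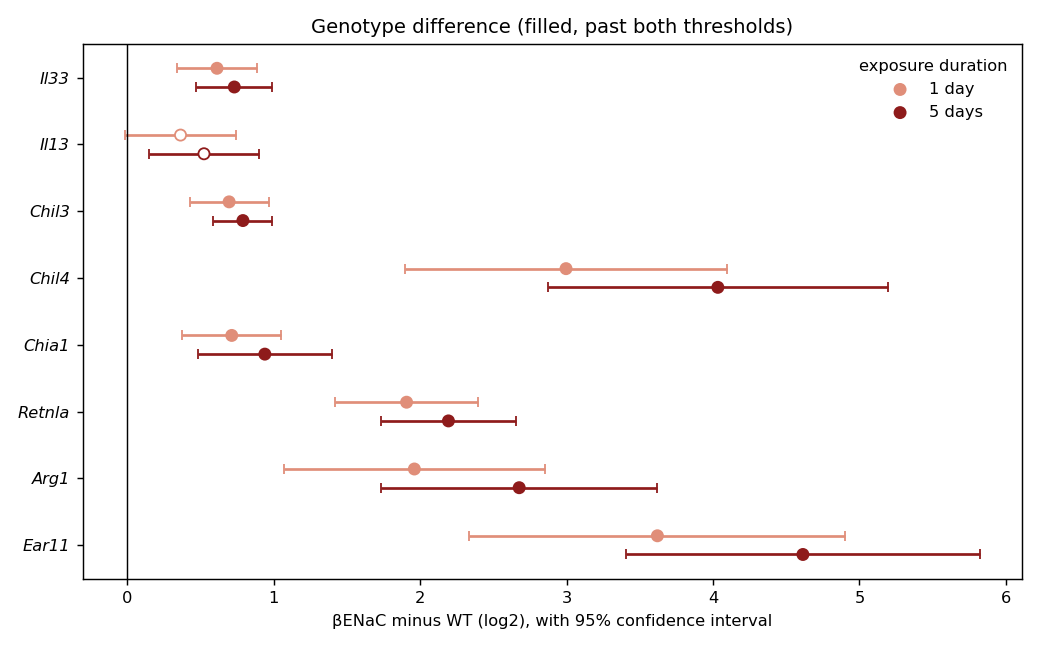
The genotype difference (βENaC minus WT, log2) of each gene at 1 day and at 5 days from the limma fits, with bars for the 95% confidence interval; filled points passed both thresholds. Both Il13 points are open, while the Ear11 points lie at 3.62 and 4.61.

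Il33 (NM_133775), the epithelial alarmin at the head of the pathway, had a level in WT mice of 8.82 to 9.57 at 1 day and 8.19 to 9.52 at 5 days, with medians of 9.32 and 9.27. In βENaC mice it ranged from 8.96 to 11.55 and from 8.98 to 10.89, with medians of 9.79 and 9.85. The genotypes overlapped, although 13 of 20 and 14 of 19 βENaC mice lay above the highest WT mouse of their duration. The difference was 0.61 (SE 0.14, limma adjusted p = 0.00306) at 1 day and 0.73 (SE 0.13, limma adjusted p = 0.000102) at 5 days. WT smoke-exposed female 2 of the 5 days, among the 4 arrays that stood apart, had the lowest Il33 level of all mice, 8.19.

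Il13 (NM_008355), the effector cytokine, was low in nearly all mice, with WT levels of 3.17 to 4.04 at 1 day and 3.08 to 3.86 at 5 days. In βENaC mice the median was 3.54 and 3.57, but single mice reached 7.01 and 5.92. At 1 day 2 of 20 and at 5 days 6 of 19 βENaC mice lay above the highest WT mouse. Over all mice the difference was 0.36 (SE 0.19, limma adjusted p = 0.309) at 1 day and 0.52 (SE 0.18, limma adjusted p = 0.0634) at 5 days, with 95% confidence intervals from -0.01 to 0.74 and from 0.15 to 0.90. Without βENaC sham male 1 (7.01), one of the 4 arrays that stood apart, the 1-day difference was 0.19 and was not called. The 5-day difference passed when any 1 of 3 βENaC sham mice was left out, female 4 (limma adjusted p = 0.0387), male 5 (0.0405) or male 4 (just under the threshold). It also passed without the 30% of rows of lowest mean (limma adjusted p = 0.0486) and with the replicate number as a block (limma adjusted p = 0.0491), and not without the 4 arrays that stood apart (0.34, limma adjusted p = 0.187).

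Chil3 (NM_009892), which encodes Ym1, had a WT median of 11.42 at 1 day and 11.57 at 5 days. The βENaC medians were 12.22 and 12.51, and 13 of 20 and 14 of 19 βENaC mice exceeded every WT mouse of their duration. The differences were 0.70 (SE 0.13, limma adjusted p = 0.000537) and 0.79 (SE 0.10, limma adjusted p = 3.32e-07), or 1.62-fold and 1.73-fold.

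Chil4 (NM_145126), which encodes Ym2, had the same direction over a much wider range. The lowest, median and highest levels at 1 day were 2.67, 3.38 and 8.74 in WT sham mice and 2.98, 3.51 and 4.06 in WT smoke-exposed mice. At the same time they were 3.41, 5.88 and 9.75 in βENaC sham mice and 3.30, 7.15 and 10.05 in βENaC smoke-exposed mice. Of these WT mice, 2 sham females stood out at 8.74 and 5.09 and the others were at 4.06 or below, and the βENaC mice were spread from the WT level to far above it. At 5 days the WT sham values were 2.92, 3.26 and 7.25 and the WT smoke values 2.86, 3.35 and 5.40, and the βENaC values 7.27, 9.28 and 10.91 under sham and 3.17, 5.28 and 10.70 under smoke. The lowest βENaC sham mouse of the 5-day exposures (7.27) lay just above the highest WT sham mouse (7.25), whereas the βENaC smoke-exposed mice overlapped the WT mice. Chil3, Retnla and Ear11 were likewise apart within these sham mice. Arg1 (lowest βENaC 5.64, highest WT 5.61) and Il33 (9.54 and 9.52) were apart only narrowly. The share of all rows that were apart there was not counted, so this is not shown to be particular to the members. The genotype difference was 3.00 (SE 0.54, limma adjusted p = 0.000287) at 1 day and 4.03 (SE 0.57, limma adjusted p = 3.30e-06) at 5 days. The probes of Chil3 and Chil4 were not examined for shared sequence, and part of the signal of either may be shared.

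Chia1 (NM_023186), the active chitinase beside them on chromosome 3, had WT levels of 7.36 to 9.03 at 1 day and 7.76 to 8.98 at 5 days. The βENaC levels were 8.08 to 10.98 and 7.92 to 10.84, and 8 of 20 and 11 of 19 mice exceeded the highest WT mouse. The difference was 0.71 (SE 0.17, limma adjusted p = 0.00466) at 1 day and 0.94 (SE 0.23, limma adjusted p = 0.00419) at 5 days.

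Retnla (NM_020509) encodes RELM-alpha, a secreted protein of alternatively activated macrophages and epithelium. At 1 day its lowest, median and highest levels were 9.09, 9.54 and 11.74 in WT sham and 9.34, 9.67 and 11.13 in WT smoke-exposed mice, and 10.41, 11.25 and 13.33 in βENaC sham and 10.60, 11.96 and 12.70 in βENaC smoke-exposed mice. All 20 βENaC mice lay above the median of the WT mice, and 10 lay above the highest of them. At 5 days the levels were 9.02, 9.52 and 10.44 in WT sham, 9.80, 10.15 and 11.14 in WT smoke-exposed, 11.85, 12.56 and 13.16 in βENaC sham and 10.49, 11.40 and 13.36 in βENaC smoke-exposed mice, and 16 of 19 βENaC mice exceeded every WT mouse. The difference was 1.91 (SE 0.24, limma adjusted p = 6.13e-07) at 1 day and 2.19 (SE 0.23, limma adjusted p = 6.39e-09) at 5 days, the smallest adjusted p among the 8 genes at both durations.

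Arg1 (NM_007482) encodes the arginase that turns arginine into ornithine and urea. Its WT levels had medians of 4.43 and 4.45 and highest values of 5.70 and 6.19 at 1 and 5 days. The lowest, median and highest βENaC levels at 1 day were 4.02, 5.50 and 10.92 under sham and 4.11, 7.00 and 8.58 under smoke, and at 5 days 5.64, 7.98 and 10.25 under sham and 4.23, 5.32 and 10.64 under smoke. Some βENaC mice in 3 of these 4 groups lay within the WT range around the WT median, while 10 of 20 and 12 of 19 βENaC mice lay above every WT mouse. The difference was 1.96 (SE 0.44, limma adjusted p = 0.00326) at 1 day and 2.68 (SE 0.47, limma adjusted p = 8.93e-05) at 5 days.

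Ear11 (NM_053113), a ribonuclease that attracts macrophages and is made by alveolar macrophages in type 2 settings, had the largest genotype difference. At 1 day its lowest, median and highest levels were 2.78, 2.96 and 7.28 in WT sham and 2.77, 2.96 and 7.97 in WT smoke-exposed mice, and 2.83, 7.00 and 10.93 in βENaC sham and 3.16, 8.37 and 10.07 in βENaC smoke-exposed mice. At 5 days they were 2.75, 3.00 and 5.86 in WT sham and 2.81, 3.01 and 8.34 in WT smoke-exposed mice, and 7.50, 9.83 and 11.10 in βENaC sham and 2.93, 6.13 and 11.24 in βENaC smoke-exposed mice. In each of the 4 WT groups 1 mouse stood far above a median near 3, and 10 of 20 and 10 of 19 βENaC mice exceeded the highest WT mouse of their duration. The difference was 3.62 (SE 0.63, limma adjusted p = 0.000179) at 1 day and 4.61 (SE 0.60, limma adjusted p = 5.59e-07) at 5 days. No member had genotypes that were fully apart, which 0.0415% of all rows had at 1 day and 0.0478% at 5 days with βENaC mice higher.

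**Figure D2:**
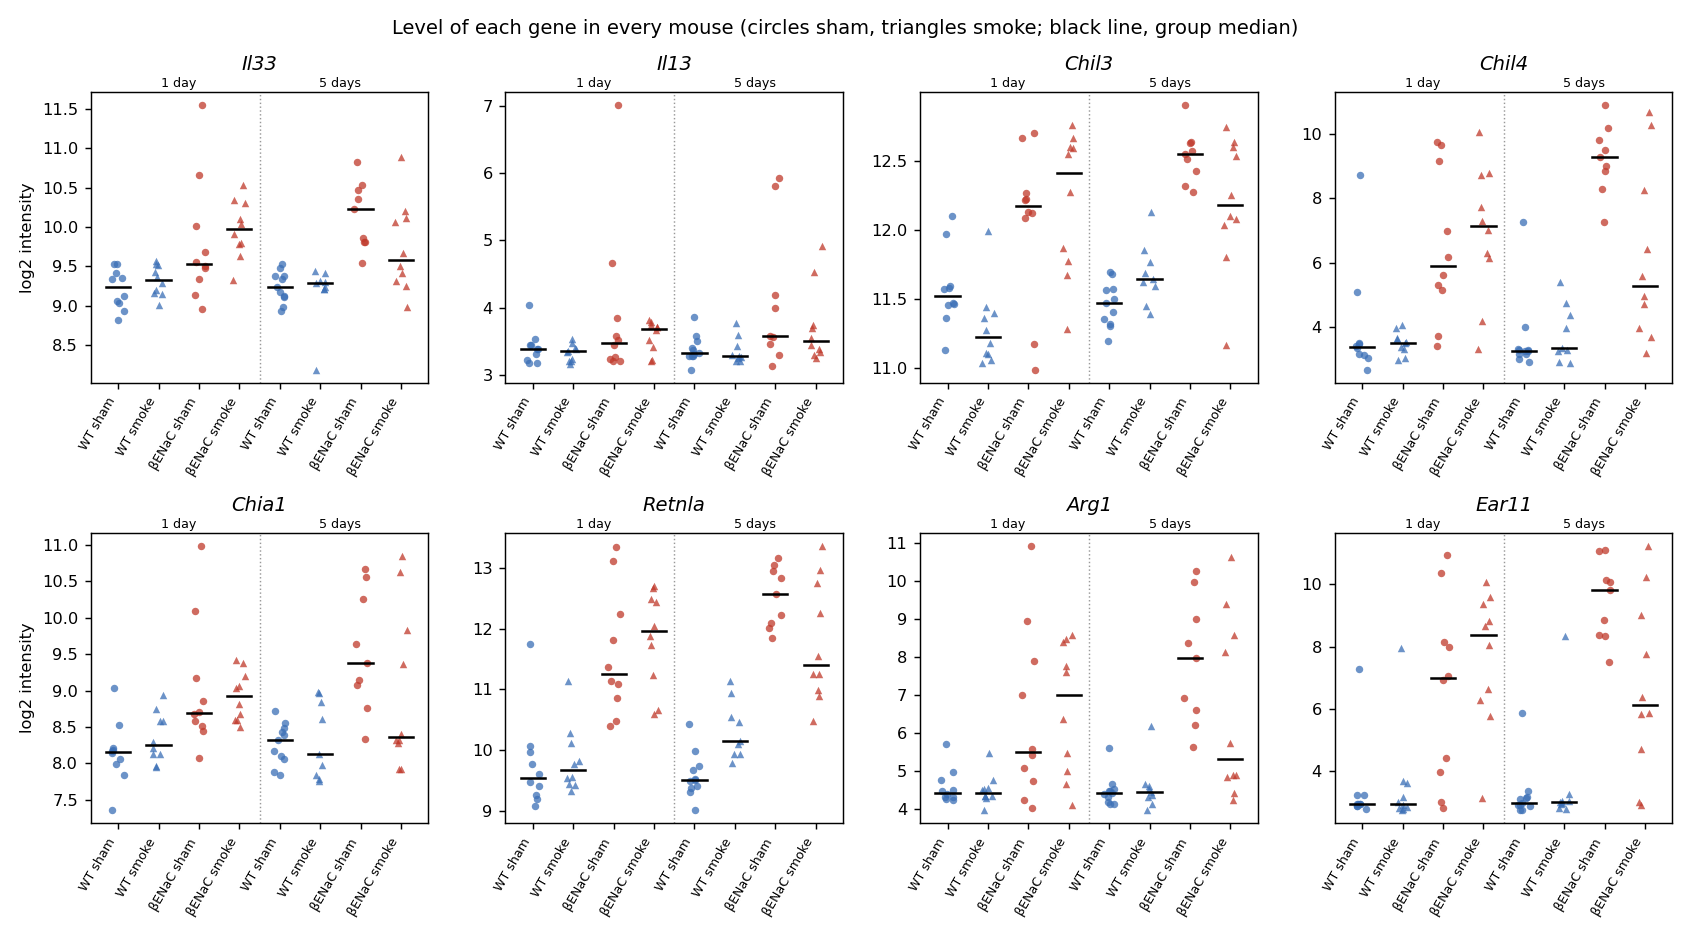
Log2 intensity of each gene in every mouse (blue WT, red βENaC; circles sham, triangles smoke) with the 1-day exposures left and the 5-day exposures right of the dotted line and the group median as a black line. Each panel has its own axis. For Chil4, Arg1 and Ear11 the βENaC mice of each duration, sham and smoke together, reach from the WT level to values of 10 or more.

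The genotype calls of the 7 genes remained when each of the 79 mice was left out in turn and when the 4 arrays that stood apart were left out together. With 1 mouse left out, the Ear11 difference stayed between 3.40 and 3.86 (1 day) and between 4.36 and 4.95 (5 days), and that of Chil4 between 2.81 and 3.26 and between 3.81 and 4.22. With the sexes fitted apart, which leaves 20 mice or fewer in a fit, the 1-day calls dropped to 1 gene in males (Retnla) and 4 in females (Chil3, Ear11, Il33 and Retnla), and at 5 days Chia1 was not called in either sex (the higher adjusted p was 0.220, in females) nor Il33 in females (limma adjusted p = 0.0503). All 8 differences kept their direction. No genotype by sex difference was called for any of the 8 genes at either duration (limma adjusted p from 0.934 to 1.00; 0 at an unadjusted p below 0.05), and none for any row (0%).

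Within each exposure arm the genotype difference of all 8 genes was positive. At 5 days the 7 genes were called within sham mice (1.84% of rows were higher in βENaC mice there), with 6.11 for Ear11, 5.61 for Chil4 and 3.36 for Arg1. Within smoke-exposed mice 3 were called, Chil3, Ear11 and Retnla (0.660% of rows), and the same 3 values were 3.06, 2.39 and 1.97. At 1 day Retnla alone was called within sham mice (0.478% of rows), and Chil3, Chil4, Ear11 and Retnla within smoke-exposed mice (1.08%). Of these counts, that within smoke-exposed mice at 5 days fell to 1, Retnla, without the 4 arrays that stood apart, while that within smoke-exposed mice at 1 day rose from 4 to 6. The first also fell to 1 without any 1 of 8 mice of the 5-day smoke exposures (WT female 1, WT males 2, 4 and 5, βENaC female 3 and βENaC males 2, 4 and 5) and rose to 5 without βENaC female 1. The count within sham mice at 1 day rose to between 2 and 4 without any 1 of 7 mice, the βENaC sham females 1 and 3, βENaC sham males 4 and 5, WT sham females 2 and 5 and βENaC smoke-exposed male 4.

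Exposure gave no call among these genes over both genotypes. Smoke minus sham was called for 0 of 8 genes at either duration, both by limma and under the unmoderated linear model that the methods name, against 1.07% and 1.15% of all rows, and at an unadjusted p below 0.05 there were 0 genes at 1 day and 1, Chil4, at 5 days (21.5% and 18.2% of all rows). The differences at 1 day lay between -0.20 (Il13) and 0.61 (Ear11). At 5 days they were negative for 7 of the 8 genes, from -1.41 (SE 0.57, limma adjusted p = 0.151) for Chil4 to 0.02 (SE 0.23) for Retnla. Their confidence intervals were wide for the genes with the widest spread, from -2.57 to -0.25 for Chil4 and from -2.36 to 0.05 for Ear11 at 5 days, and narrow for Chil3, from -0.25 to 0.15.

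Within βENaC mice, Chil4 was lower after 5 days of smoke than after 5 days of sham exposure. The gap was 3.06 on the log2 scale (SE 0.74, limma adjusted p = 0.0179), where 0.332% of all rows were called lower. Chil4 was the single member called there. The difference for Ear11 was -2.71 (SE 0.79, limma adjusted p = 0.0654), for Arg1 -1.28 (adjusted p = 0.42) and for Retnla -0.75 (adjusted p = 0.21). All 8 differences were negative, and 5 genes had an unadjusted p below 0.05, as did 12.6% of all rows. For Chil4 and Ear11 the βENaC sham median was itself higher at 5 days than at 1 day. Their βENaC smoke medians at 5 days lay below both sham medians. Whether sham mice differed between the durations was not tested. Within WT mice, 0 of 8 genes were called at 5 days (0.915% of rows), with 0.16 for Chil4, 0.33 for Ear11 and 0.74 (limma adjusted p = 0.185) for Retnla, the gene with an unadjusted p below 0.05 (12.8% of all rows). At 1 day 0 of 8 genes were called within WT (1.28% of rows) or within βENaC mice (0.772%) by limma, and 0 had an unadjusted p below 0.05.

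The test of whether the exposure difference itself differed by genotype called none of the 8 genes at 5 days, and no row of the table (0%). All 8 terms were negative, -3.29 (SE 1.04, limma adjusted p = 0.94) for Chil4, -3.19 (SE 1.08, limma adjusted p = 1.00) for Ear11 and -1.52 (SE 0.39, limma adjusted p = 0.853) for Retnla. Without adjustment over the table, 4 genes had a p below 0.05 from limma, Retnla (0.000424), Chil3 (0.00279), Chil4 (0.00313) and Ear11 (0.00541), and 3.82% of all rows did. At 1 day the term was called for none of the 8 genes (0.00638% of rows), with 0 below an unadjusted p of 0.05, and its sign was positive for 6.

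**Figure D3:**
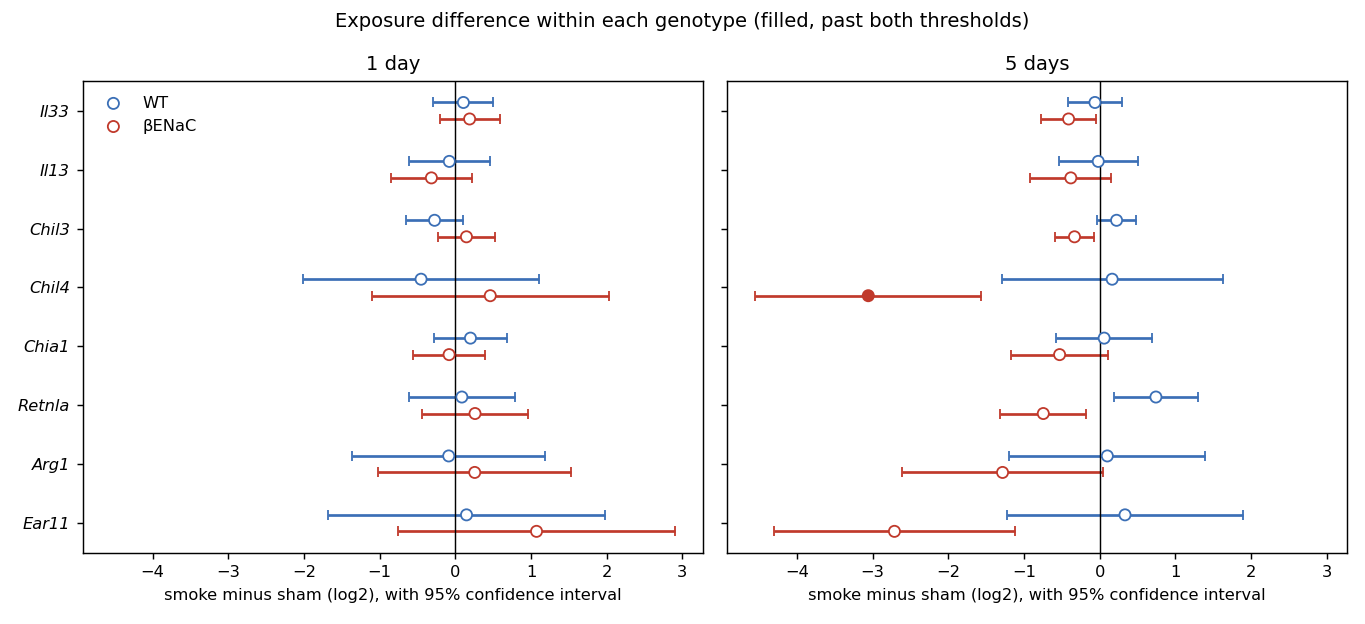
The exposure difference (smoke minus sham, log2) within WT (blue) and within βENaC mice (red) at 1 day and 5 days, from limma fits with a genotype by exposure term, with bars for the 95% confidence interval; filled points passed both thresholds. At 5 days the βENaC point lies left of the WT point for every gene, and Chil4 in βENaC mice is the filled point.

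This contrast varied with single mice. In the 5 βENaC smoke-exposed females of the 5-day exposures, Chil4 was at 3.69, 4.97, 10.70, 3.98 and 4.71, and in the 5 males at 3.17, 6.42, 5.59, 8.25 and 10.29. Ear11 in the same females was at 3.02, 4.73, 11.24, 2.93 and 5.85. The female with the high values (replicate 3) was one of the 4 arrays that stood apart, and had the highest Chil3, Chil4, Chia1, Retnla, Arg1, Ear11, Il33 and Il13 level of the 10 βENaC mice smoke-exposed for 5 days. Without that mouse 4 genes were called lower with smoke in βENaC mice, Chil4, Ear11, Il33 and Retnla, and without the 4 arrays together, 2 (Chil4 and Ear11). Without βENaC smoke-exposed male 1 no gene was called, with an adjusted p of 0.0501 for Chil4. Ear11 joined Chil4 when WT smoke-exposed male 3, βENaC sham male 4 or βENaC smoke-exposed male 5 was left out. Over all left-out mice the Chil4 difference ranged from -3.56 to -2.70.

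Exposure by duration, tested in all 79 mice, was called for 0 of the 8 genes by limma, against 1.39% of rows. At an unadjusted p below 0.05 there were 2 genes, Ear11 and Il33, and 12.3% of all rows. Sex was called for 0 genes at 1 day and at 5 days (0 at an unadjusted p below 0.05 at either), against 0.836% and 0.198% of rows. The largest male minus female difference was 1.06 for Ear11 at 5 days (SE 0.59, limma adjusted p = 0.517). Exposure by sex was called for 0 of the 8 genes at both durations (0.00638% and 0% of rows), with 0 genes at an unadjusted p below 0.05.

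In βENaC mice the members were high or low together in the same mouse. For each mouse of either genotype, the members above the highest other WT mouse of its duration were counted. Among βENaC mice of the 1-day exposures 4 of 20 exceeded in none of the 8 genes and 2 in all 8, and among those of the 5-day exposures 3 of 19 in none and 6 in all 8. By exposure, the median count at 5 days was 7 genes in the 9 βENaC sham mice, all of which reached at least 5, and 2 genes in the 10 βENaC smoke-exposed mice, of which 4 reached 5. At 1 day the order was the reverse, with medians of 1.5 in βENaC sham and 5 in βENaC smoke-exposed mice. These counts were not tested and not set against the other rows. Since the members moved together, a count does not stand for as many separate results. Among WT mice 17 of 20 and 16 of 20 exceeded in none, and 2 WT mice exceeded in 5 genes, sham female 5 of the 1-day exposures and smoke-exposed male 3 of the 5-day exposures. The first had Chil4 at 8.74, Ear11 at 7.28 and Retnla at 11.74, and the second Ear11 at 8.34, Arg1 at 6.19 and Retnla at 11.14, and the Scnn1b level of both lay in the WT range.

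The spread between mice was wider in βENaC than in WT mice for every gene at both durations. For Arg1 the SD was 1.96 against 0.419 at 1 day and 2.11 against 0.514 at 5 days, and for Il13 0.842 against 0.197 and 0.830 against 0.194. The ratio of the SDs was lowest for Retnla at both durations, with 0.899 against 0.650 and 0.860 against 0.557. These SDs are over both exposures and sexes.

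**Figure D4:**
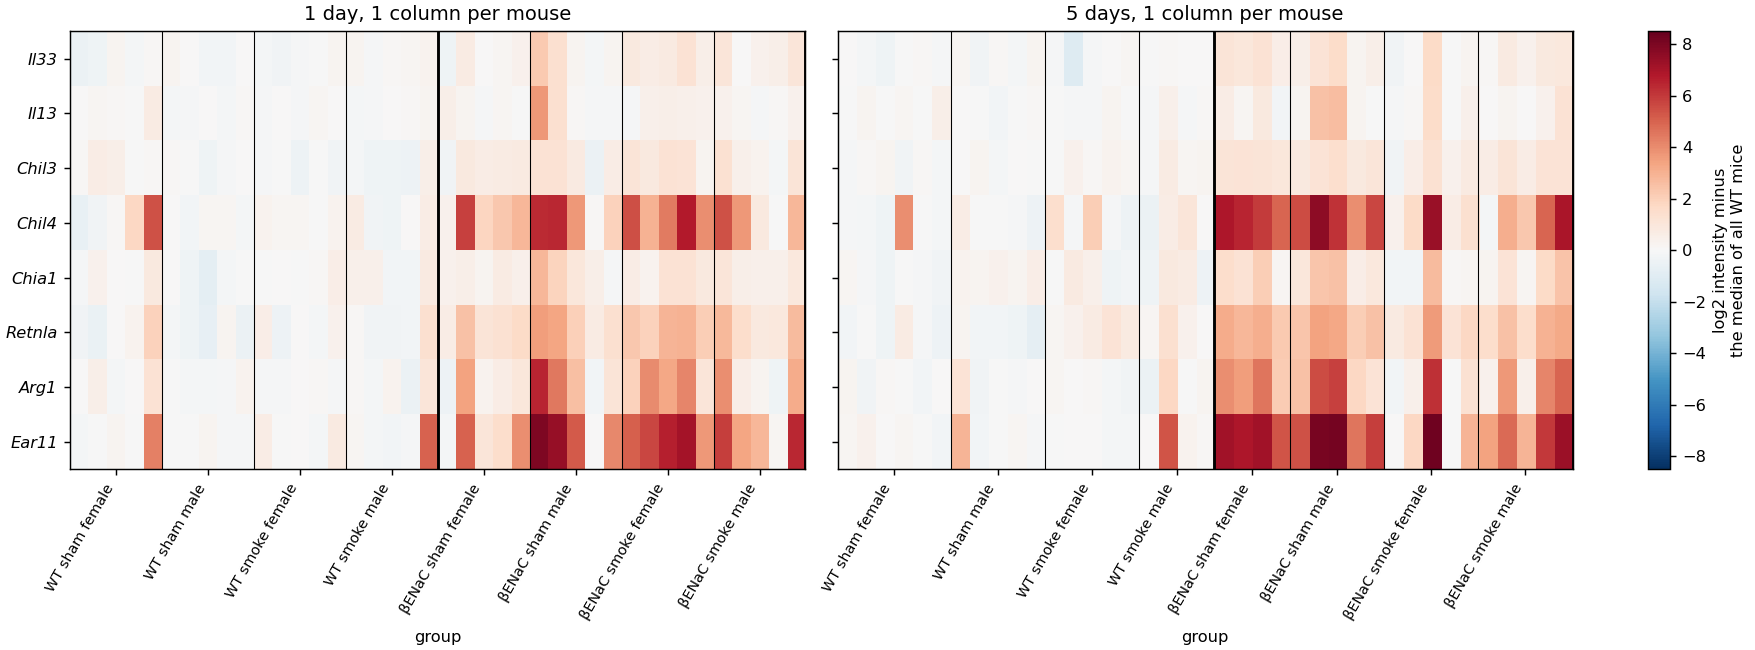
Heat map of the 8 genes (rows) in the 79 mice (columns, by group; the thick line separates WT from βENaC mice), coloured by log2 intensity minus the median of all WT mice. In many βENaC mice the rows of Chil4, Retnla, Arg1 and Ear11 are red together, as in sham males 2 and 3 of the 5-day exposures. Of the 5 smoke-exposed βENaC females of the 5-day exposures, 4 are pale beside 1 dark column.

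Correlations across mice were computed on deviations from the means of the 16 groups, for the 28 pairs of members within each genotype, with 100000 permutations and Benjamini-Hochberg adjustment over the 56 tests. In the 39 βENaC mice all 28 pairs were positive and passed by Pearson's r and by Spearman's rho, with a median r of 0.842. The share of pairs of other rows that would pass was not computed in either genotype. The counts of pairs are therefore not shown to be particular to the members. The highest were Retnla with Ear11 (r = 0.95, rho = 0.94), Retnla with Arg1 (r = 0.94, rho = 0.91) and Arg1 with Ear11 (r = 0.92, rho = 0.92), each with a permutation p of 1e-05, the smallest the permutations can give, and adjusted p = 2.07e-05 for r and 2.15e-05 for rho. The lowest was Chil3 with Il13 (r = 0.47, permutation p = 0.00289, adjusted p = 0.00450; rho = 0.56, permutation p = 0.00029, adjusted p = 0.000541). Without the 2 mice farthest from the median of the first gene of a pair, all 28 pairs still passed, with r from 0.412 to 0.932. Within the 1-day mice 26 and within the 5-day mice 28 pairs passed, and without the 4 arrays that stood apart 27 passed, with r from 0.333 to 0.930.

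In the 40 WT mice 11 of 28 pairs passed both tests, with a median r of 0.394. The highest were Arg1 with Ear11 (r = 0.85, rho = 0.59; permutation p = 1e-05 and 0.0001, adjusted p = 2.07e-05 and 0.0002) and Retnla with Ear11 (r = 0.81, rho = 0.62; permutation p = 1e-05 and 7e-05, adjusted p = 2.07e-05 and 0.000145). These 2 pairs remained at r = 0.767 and 0.660 without the 2 farthest mice. Of the 28 pairs, 6 passed without the 2 farthest mice, 9 in the 1-day mice alone and 2 in the 5-day mice alone against the 11 in all WT mice. Without the 4 arrays that stood apart 12 passed, with r from -0.210 to 0.851. Chil3 and Chil4, the neighbouring copies, had r = -0.22 in WT mice (rho = -0.23; permutation p = 0.168 and 0.156, adjusted p = 0.184 and 0.190) and r = 0.77 in βENaC mice (rho = 0.79; permutation p = 1e-05, adjusted p = 2.07e-05 for r and 2.15e-05 for rho). Whether the correlations differ between the genotypes was not tested.

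**Figure D5:**
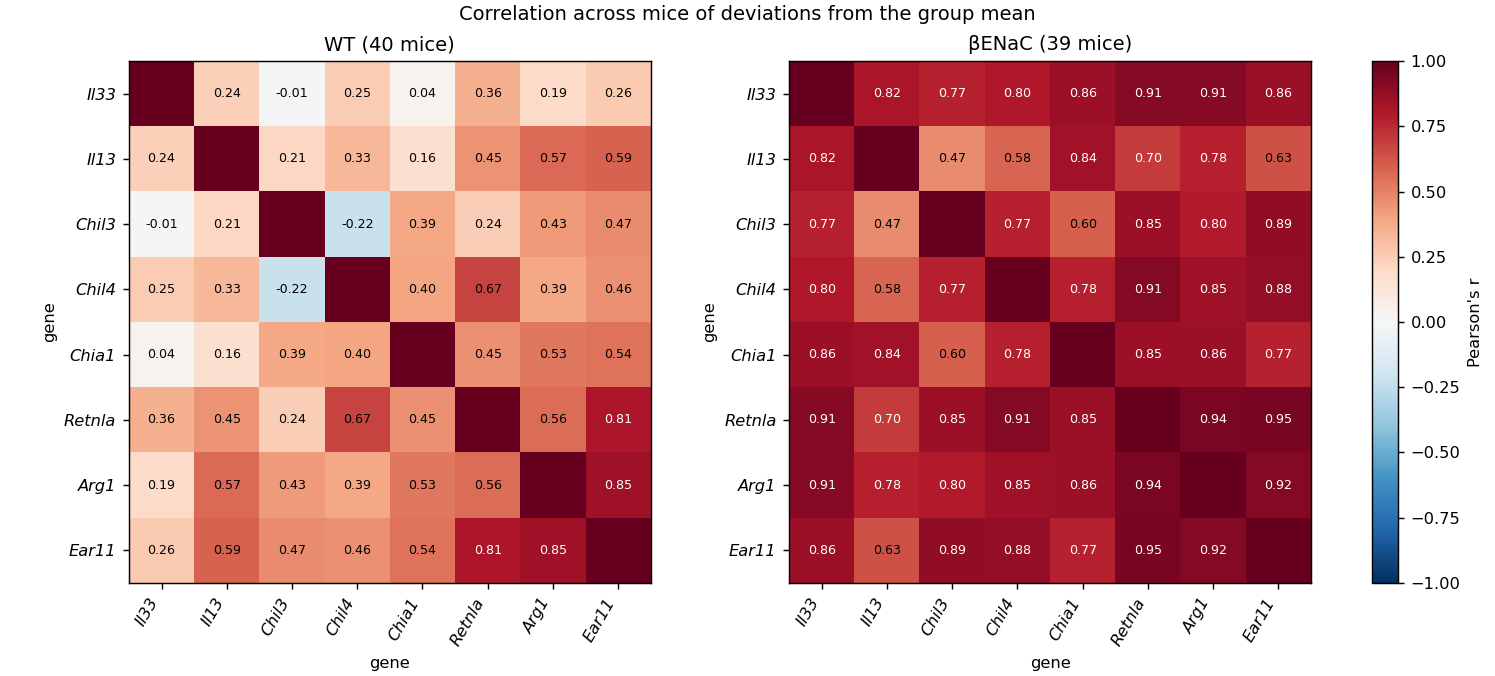
Pearson's r between the 8 genes across the 40 WT mice (left) and the 39 βENaC mice (right), computed on deviations from the group means and printed in each cell. All βENaC cells are positive, from 0.47 to 0.95, and the WT cells run from -0.22 to 0.85.

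Over all 79 mice the rows whose deviations were most like those of a member were listed by Pearson's r, 3 per member, as a description without a test. The closest to Ear11 was Mmp12 (r = 0.927), the macrophage elastase, followed by Retnla and Slc26a4. The closest to Retnla was Slc26a4 (r = 0.910), the airway anion exchanger pendrin. Chil4 was closest to Fcgbp (r = 0.896), an IgG Fc binding protein of mucus, and then to Retnla and Clca1. Arg1 was closest to Ccl24 (r = 0.939), the chemokine eotaxin-2, then to Tm4sf19 and C3ar1. Chil3 was closest to Ms4a8a (r = 0.851), Mmp12 and Cd68, Chia1 to Col6a5 (r = 0.865), Cfi and Rbp4, Il33 to St3gal4 (r = 0.901), Pdia4 and Ms4a6d, and Il13 to Sox9 (r = 0.908), Tgm1 and Ccl7. The points share the array plate, the normalization and the centring on the groups.

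Around the members, the other genes of the pathway were counted from lists, which were also chosen with earlier results of these data known. Of 19 type 2 cytokine and receptor genes, 2 were higher in βENaC mice at 1 day, Il33 and its receptor Il1rl1 (0.65), and 3 at 5 days, with Il1rl1 at 0.63 and Il4 at 0.41 (limma adjusted p = 0.049). Il4 passed both thresholds narrowly and had a low mean level, 3.26, where the medians of the arrays were 4.44 to 4.55. Il5, the eosinophil growth factor, had differences of 0.14 and 0.09 and was not called. Of 17 alternatively activated macrophage genes with a row, 11 were higher at 1 day and 12 at 5 days, 3 of them members (Arg1, Retnla and Chil3). Mmp12 had the largest difference of that list, 2.56 (SE 0.39, limma adjusted p = 2.28e-05) at 1 day and 3.22 (SE 0.34, limma adjusted p = 9.80e-09) at 5 days, and Mrc1, the mannose receptor, the smallest called, 0.51 and 0.63. Between them lay the ligand gene Pdcd1lg2 (0.99 and 1.35), the integrin gene Itgax (0.85 and 1.21), the chemokine Ccl17 (0.83 and 0.90), the lipoxygenase Alox15 (0.93 and 0.82) and the lectin Mgl2 (0.71 and 0.79) at both durations. The chemokine Ccl22 was called at 5 days (0.66) and not at 1 day (0.34), and its genotype by duration term was not called (0.30, limma adjusted p = 0.851). The median of this list was 0.71 and 0.79. With smoke at 5 days Mgl2 fell by 0.43 (limma adjusted p = 0.028), as did Areg, the growth factor amphiregulin of the cytokine list, by 0.42 (limma adjusted p = 0.0135).

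Of 13 epithelial genes known to respond to IL-13, 8 were higher at 1 day and 8 at 5 days. Agr2, Pigr and Tff2 were called at both durations, Serpinb2 at 1 day and Fcgbp at 5 days, and the other 4, called at both, were Itln1 (2.04 and 2.32), Clca1 (2.24 and 3.15), Slc26a4 (2.10 and 3.07) and the mucin Muc5ac (1.12 and 1.51). The median over the list was 0.78 and 1.23. Of 15 eosinophil and mast cell genes 2 were higher at both durations, the chemokines Ccl24 (1.27 and 1.73) and Ccl11 (1.05 and 1.42), which attract eosinophils. With smoke at 1 day Tff2, a trefoil peptide of mucus, rose by 0.62 (limma adjusted p = 0.00316) and Pigr, the receptor that carries IgA across epithelium, fell by 0.59 (limma adjusted p = 0.00131), while Clca1 had a difference of 1.15 that was not called (limma adjusted p = 0.167). With smoke at 5 days Clca1 fell by 1.61 (SE 0.48, limma adjusted p = 0.0317) and Agr2, a chaperone of mucus cells, rose by 0.67 (limma adjusted p = 0.000768), and Tff2 and Pigr, at 0.05 and -0.01, were not called.

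Within the gene families of the members, some genes were called and others were not. Of 8 chitinase family genes with a row, the 3 called were the members Chil4, Chia1 and Chil3, and the list's median difference was 0.07 at 1 day and 0.01 at 5 days. Among the 4 resistin-like genes Retnla alone was called by genotype, and Retnlg, a neutrophil gene, fell with 1 day of smoke by 0.66 (limma adjusted p = 0.0237). Of 6 ribonuclease genes of the Ear family, Ear11 and Ear6 (1.06 and 1.24) were higher and Ear1 (-0.52 and -0.63) lower in βENaC mice at both durations, Rnase2b was higher at 5 days (0.87), and Ear2 was lower with smoke at 5 days (-0.41). Genes of this family share much of their sequence, and signal shared between their probes was not examined. Of 8 genes of arginine handling, Arg1, Arg2 (0.45 and 0.53) and Nos2 (0.51 and 0.57), the nitric oxide synthase that competes for the same substrate, were higher in βENaC mice at both durations, and Nos2 fell with 1 day of smoke by 0.58 (limma adjusted p = 7.00e-06).

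Markers of the cells that could carry these transcripts are given beside them. Of 8 alveolar macrophage markers, 3 were higher in βENaC mice at both durations (Atp6v0d2, Marco and Plet1) and 2 lower (Krt79 and Cidec), and the mean over the 8 was 7.48 to 8.48 in WT and 7.84 to 8.67 in βENaC mice after 1 day, and 8.15 to 8.68 and 8.27 to 8.85 after 5 days. Of 5 club and goblet cell markers, 4 were higher at both durations (Muc5ac, Muc5b, Tff2 and Bpifb1), with means of 7.77 to 9.16 in WT and 8.49 to 9.54 in βENaC mice at 1 day and 7.88 to 8.90 and 8.91 to 9.56 at 5 days. None of the 4 eosinophil markers was called by genotype by limma (adjusted p of 0.0891 or more; Prg2 and Ccr3 had an unadjusted p below 0.05 at both durations), with Epx, the eosinophil peroxidase, at -0.03 and -0.01 and Prg2, the major basic protein, at 0.35 and 0.61, and Ccr3 fell with 5 days of smoke by 0.91 (limma adjusted p = 0.0219). The eosinophil mean was 3.48 to 4.55 in WT and 3.34 to 5.17 in βENaC mice after 1 day, and 3.30 to 4.29 and 3.55 to 5.33 after 5 days. None of 6 neutrophil, 7 alveolar type 2, 6 mast cell and basophil and 5 T cell markers was called by genotype at either duration. The part of cell numbers in the genotype differences of the members was not tested.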

How the data were processed

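RNA of the right lungs of 79 mice was hybridised to Affymetrix mouse gene arrays, 1 array per mouse, all on 1 plate. The authors checked array quality in Expression Console 1.4, normalized in Partek 6.6 by RMA (background, GC and probe sequence correction, quantile normalization, median polish), removed 1 mouse mislabelled for smoke exposure, and deposited log2 expression values for 31350 transcript rows (1.98 to 13.41). The depth of an array is not a count, so the number of mice limits the precision. The genome build of the array annotation is not given in the sources used here, and promoter coordinates are those of RefSeq's table. The 9 members and all lists were chosen with earlier results of these data known.

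Rows were matched to RefSeq symbols by transcript accession. Each duration was fitted over all rows with limma 3.58.1 (R 4.3.3) with terms for genotype, exposure and sex, or with an interaction of 2 of them, and duration was tested in all mice. A gene was called at a Benjamini-Hochberg adjusted p below 0.05 over all rows and a change beyond 1.3-fold, and an interaction on the adjusted p alone. P-values that are not adjusted also come from limma. Groups came from titles and genotype labels. Every member was named, other list genes first where called by genotype or exposure over both genotypes, and the 3 rows most like each member by r. Alternatives were an ordinary linear model, other normalizations, filters, thresholds and priors, array weights, the replicate number as a block, 1 sex, 1 fit over all mice and each mouse left out. Scripts were tested on simulated data.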

Additional observations from a re-analysis of the deposited data

Results flagged for a closer look

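A mouse was listed where it stood apart from the other 3 to 5 mice of its group by Dixon's test at the 95% level. This was so in 20 of 128 combinations of gene and group (15.6%), in 14 mice, 16 times at the high and 4 times at the low end, where chance gives about 1 in 20. For Chil3, βENaC sham female 1 (1 day) was at 11.17 (below 12.12 to 12.26 in the rest of its group) and WT smoke-exposed male 5 (1 day) was at 11.99 (above 11.04 to 11.28 in the rest of its group). For Chil4, βENaC smoke-exposed female 3 (5 days) was at 10.70 (above 3.69 to 4.97 in the rest of its group) and WT sham female 4 (5 days) was at 7.25 (above 2.98 to 3.28 in the rest of its group). For Chia1, βENaC smoke-exposed female 3 (5 days) was at 10.84 (above 7.92 to 8.32 in the rest of its group) and WT smoke-exposed female 5 (1 day) was at 8.74 (above 8.12 to 8.29 in the rest of its group). For Retnla, WT smoke-exposed male 5 (1 day) was at 11.13 (above 9.43 to 9.83 in the rest of its group). For Arg1, βENaC smoke-exposed female 3 (5 days) was at 10.64 (above 4.23 to 5.74 in the rest of its group) and WT sham male 5 (1 day) was at 4.77 (above 4.25 to 4.38 in the rest of its group). For Arg1, WT sham male 1 (5 days) was at 5.61 (above 4.14 to 4.47 in the rest of its group). For Ear11, βENaC sham female 4 (5 days) was at 8.33 (below 9.83 to 10.13 in the rest of its group) and WT sham female 5 (1 day) was at 7.28 (above 2.78 to 3.23 in the rest of its group). For Ear11, WT sham male 3 (1 day) was at 3.24 (above 2.89 to 2.96 in the rest of its group) and WT sham male 1 (5 days) was at 5.86 (above 2.76 to 3.17 in the rest of its group). For Ear11, WT smoke-exposed male 5 (1 day) was at 7.97 (above 2.77 to 3.17 in the rest of its group) and WT smoke-exposed male 3 (5 days) was at 8.34 (above 3.04 to 3.27 in the rest of its group). For Il33, βENaC smoke-exposed female 3 (5 days) was at 10.89 (above 8.98 to 9.51 in the rest of its group) and WT smoke-exposed female 2 (5 days) was at 8.19 (below 9.21 to 9.44 in the rest of its group). For Il13, βENaC smoke-exposed female 1 (1 day) was at 3.21 (below 3.72 to 3.81 in the rest of its group) and WT smoke-exposed female 4 (5 days) was at 3.59 (above 3.20 to 3.29 in the rest of its group). βENaC smoke-exposed female 3 (5 days), one of the 4 arrays that stood apart, was listed for Chil4, Chia1, Arg1 and Il33, and WT smoke-exposed male 5 (1 day) for Chil3, Retnla and Ear11.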

How the results depend on the processing

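The genotype differences of the 7 called genes kept their direction and their call in all 553 fits without 1 mouse and in 184 other fits, while 12 fits lost the call, each of 1 sex alone, which holds fewer mice. At 1 day, males alone gave 1 called gene and females alone 4, against 7. The genotype, exposure and sex differences that were not called changed sign in 68 fits without 1 mouse and 20 others. Genotype within sham mice at 1 day (1 gene) gave 2 genes with arrays centred on their median, with quantile normalization again or without the 30% of rows of lowest mean, and 1 to 4 without 1 mouse. Genotype within smoke-exposed mice at 5 days (3 genes) gave 1 without the 4 arrays that stood apart, left out after the data were seen, and 1 to 5 without 1 mouse. Exposure within βENaC mice at 5 days (1 gene) gave 2 with array weights, without the 30% of low rows or without those 4 arrays, and 0 to 4 without 1 mouse. The 11 correlated pairs of WT mice became 2 in the 5-day mice, 6 with values not centred and 6 without the 2 farthest mice. The cause of these changes was not tested. With the replicate number as a block, Il13 joined the genotype calls at 5 days (8 genes), and the counts of the other comparisons did not change. Same-numbered mice of different groups had a median correlation of 0.010 (-0.276 to 0.538), and differently numbered mice of different groups 0.000354. Of the 266 same-numbered pairs, 42 were above 0.1. These values do not settle whether some mice were paired, and the main fits used no pairing. Averaging all rows of a gene gave no other value, as each member has 1 row.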
